A study of Mus musculus with 12 samples.

Results

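The genes described are the Wnt ligands, their Frizzled receptors and the secreted antagonists of the Sfrp and Dkk families, in blood of injured mice. They were taken by name as all rows of the deposited table called Wnt, Fzd, Sfrp1 to 5 or Dkk1 to 4, which gave 38 of 37583 gene rows. These are 37 gene symbols, since Fzd10 has 2 rows, and they comprise 19 Wnt ligands, 11 Fzd rows, 4 Sfrp genes and 4 Dkk genes. The mice were wild type, and all groups had received a burn together with the cutting of a tendon (burn/tenotomy). Blood was enriched on the iChip, a microfluidic sorting device, and the labels call the product circulating mesenchymal progenitor cells (cMPCs) with blood cells. The series title links these cells to HO, heterotopic ossification, the formation of bone in soft tissue. Total RNA was sequenced in 4 libraries each at 6 h, 1 day and 7 days after injury, called 6h, Day1 and Day7, so each comparison sets one time after injury against an earlier one. Uninjured blood was not analysed here, and the age of the mice and any pooling of animals are not given in the labels. Whether each replicate is its own animal is not stated either, and the p-values therefore reflect the spread among these libraries, which may be technical.

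Wnt proteins are secreted lipid-modified ligands that bind Frizzled receptors on nearby cells. With the co-receptors Lrp5 or Lrp6 they stabilise β-catenin, which then activates target genes with TCF/LEF factors, while ligands such as Wnt5a and Wnt11 act largely through β-catenin-independent routes. Sfrp proteins bind Wnt ligands outside the cell, and Dkk proteins other than Dkk3 bind the Lrp co-receptors. Wnt signals are known to drive bone formation, and Wnt4 and Wnt5a are made by mesenchymal cells of several organs.

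The results turn on 3 ligands, Wnt4, Wnt5a and Wnt11, and the region before the start site is shown for the pair of them that RefSeq's promoter table holds. These are the 250 bases upstream of the start on the plus strand of GRCm38.p6, for Wnt4 at chr4:137277385-137277634 and for the first of 2 Wnt11 starts at chr7:98834862-98835111. Capitals mark GC boxes (GGGCGG on either strand), the short motif bound by Sp-family factors.
Wnt4: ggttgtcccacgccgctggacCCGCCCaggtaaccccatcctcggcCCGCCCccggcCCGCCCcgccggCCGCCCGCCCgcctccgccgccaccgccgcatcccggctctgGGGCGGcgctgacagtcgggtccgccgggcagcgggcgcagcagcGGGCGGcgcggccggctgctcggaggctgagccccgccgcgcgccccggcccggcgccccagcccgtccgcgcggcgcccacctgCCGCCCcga
Wnt11: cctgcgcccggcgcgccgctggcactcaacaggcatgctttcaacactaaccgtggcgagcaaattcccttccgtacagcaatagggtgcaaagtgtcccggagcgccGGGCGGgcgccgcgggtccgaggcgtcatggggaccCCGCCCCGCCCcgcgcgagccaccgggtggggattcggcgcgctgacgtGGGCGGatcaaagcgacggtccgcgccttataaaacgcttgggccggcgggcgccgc
The Wnt4 sequence was 85.2% G or C and held 8 GC boxes, of which neighbours overlap in places. The Wnt11 sequence was 70.8% G or C and held 4, whereas the region before its second start held 0. The TCF/LEF motif was searched on either strand as CTTTGAA, with its variants ending in other letters, which are CTTTGAT and also CTTTGTA as well as the form CTTTGTT. A match lay 51 bases before the first Wnt11 start, next to a GC box and not overlapping it, and 0 matches lay in the Wnt4 window. The same TCF/LEF motifs were found in 14.8% of the 32851 promoters in the table, and in 4 of the 28 entries matched to 25 of the symbols described here. The AP-1 motif, searched as TGACTCA and thus on the other strand as TGAGTCA, was found in 4.46% of all promoters and in 1 of the 28 entries. GC boxes were found in 32.7% of all promoters and in 20 of the 28 entries, and the median G or C content was 69.4% in the entries against 52.4% in all. These are matches of letters and not sites of binding.

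Sequencing depth was between 5098395 and 12379041 reads per library, and 7631 to 16647 genes were detected. Haemoglobin genes took 16.1% to 70.3% of the reads. Values are the deposited ones, which are reads scaled to an effective library size, and 3 reads correspond to a value between 0.0942 and 1.85, the highest being that of Day7 replicate 3. At 6h, replicates 3 and 4 held reads of genes on the Y chromosome, and so did replicates 2, 3 and 4 at Day1. The other 7 libraries, with all 4 of Day7, had 0, so libraries with and without such reads are unevenly spread over the times.

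The Wnt, Fzd, Sfrp and Dkk genes were detected in low amounts and mainly in the first day after injury. Their summed reads were 686, 859, 735 and 973 in replicates 1 to 4 at 6h, then 292, 5294, 750 and 3338 at Day1, and 164, 12, 2 and 65 at Day7. At least 1 read was found for 7, 15, 20 and 10 of the rows at 6h, for 20, 24, 19 and 22 at Day1, and for 14, 6, 1 and 9 at Day7. These reads are not scaled to depth, and the effective library sizes ran from 2640689 to 16682459 reads at 6h, from 8091270 to 31845612 at Day1 and from 1621197 to 14536659 at Day7. On the scaled values, the summed Wnt ligands lay between 36.6 and 122 at 6h, between 17.3 and 97.6 at Day1 and between 0 and 4.82 at Day7, so that every Day7 library was below every earlier one. In bulk samples such as these, fewer cells of a type and less RNA per cell cannot be told apart.

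**Figure D1:**
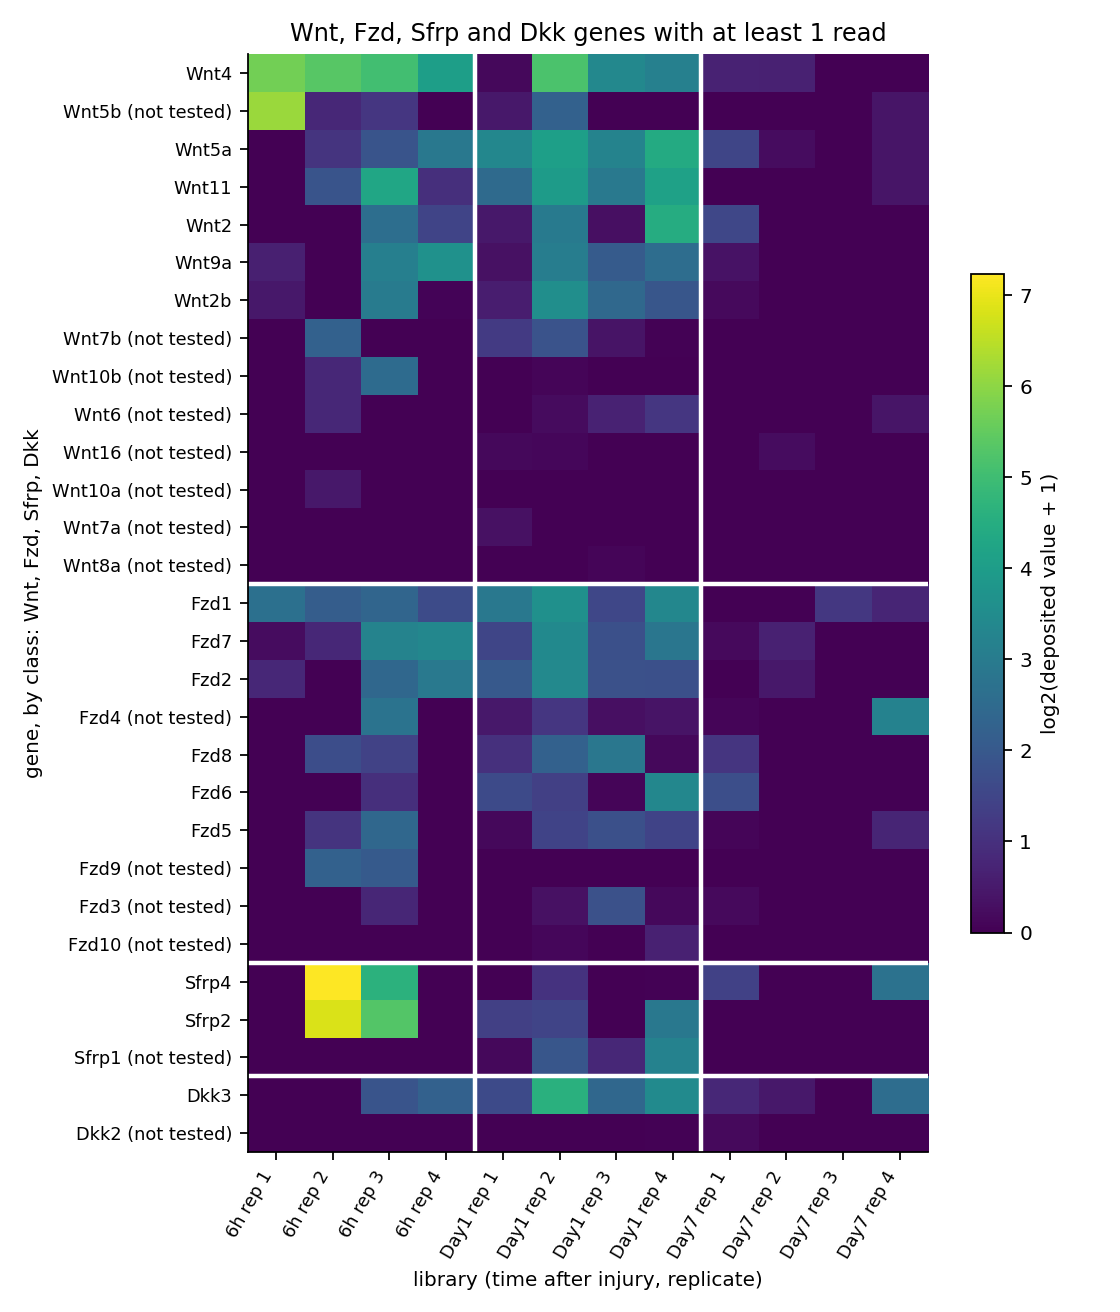
Heat map of the 29 rows with at least 1 read, by class (rows), in the 12 libraries (columns, ordered by time after injury); colour gives log2(deposited value + 1). The Day7 columns are mostly empty, and Sfrp4 and Sfrp2 are high in replicates 2 and 3 of 6h.

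Of the 38 rows, 29 had at least 1 read and 9 had none in any library. Those without reads were Wnt1, Wnt3, Wnt3a, Wnt8b, Wnt9b, Sfrp5, Dkk1, Dkk4 and 1 of the Fzd10 rows. A gene was tested where 4 or more libraries had a value of 1 or more, and 15 of the 38 rows passed, among 11211 genes. These were 6 Wnt ligands, 6 Fzd receptors, 2 Sfrp genes and Dkk3. The other 14 rows with reads included Wnt8a and Wnt10a with 1 read each and Wnt7a with 2. Because the 15 passed largely through their 6h and Day1 values, counts of those lower at Day7 describe them and are no support for a pattern of the family.

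Per kilobase of the gene length in the deposited table, which allows levels of different genes to be set side by side, the mean levels at 6h were highest for Sfrp2 (14.5 per kb), Sfrp4 (9.50 per kb) and Wnt4 (8.28 per kb). Sfrp2 and Sfrp4 were each found in 2 of the 4 libraries, while Wnt4 was found in all 4. Without 6h replicate 2, Wnt4 was first at 7.84 per kb, then came Wnt5b at 6.01 and Sfrp2 at 4.90 per kb, and Sfrp4 was at rank 5 with 1.74 per kb. Of the Wnt5b reads at 6h, 98.2% came from 1 library, replicate 1. At Day1 the order was Wnt4 (3.16 per kb), Dkk3 (2.96 per kb), Wnt11 (2.77 per kb), Wnt2 (2.33 per kb) and Wnt5a (1.74 per kb). Neighbours in this order did not differ beyond their spread: the Wnt4 mean of 13.2 had an SD of 15.3 and 1 library, replicate 2, held 77.3% of its reads. Without that library Wnt11 was first at 2.43 per kb and Wnt4 was at 1.40 per kb. At Day7 the highest mean was that of Fzd4, at 0.569 per kb, which rests on replicate 4. Without it Fzd4 was at 0.00623 per kb and Wnt2 was first at 0.209 per kb.

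Among the ligands, Wnt4 fell between 6 h and 7 days after injury, and Wnt5a and Wnt11 fell between day 1 and day 7. Wnt4, known for its roles in kidney, gonad and mesenchymal development, had values of 51.0, 40.1, 31.9 and 15.7 at 6h, of 0.124, 35.4, 9.48 and 7.94 at Day1, and of 0.619, 0.574, 0 and 0 at Day7. All 4 libraries at Day7 lay below all 4 at 6h, while the Day1 libraries spread over both ranges. The mean was 0.298 ± 0.345 at Day7 against 34.7 ± 14.9 at 6h (SD, n = 4 each), a log2 difference of -4.70 ± 0.92 (SE) with limma's adjusted p = 0.0217. Pooled over the libraries, 12 reads at Day7 against 773 at 6h make Wnt4 54.5-fold lower per effective library size (95% exact interval 31.0 to 106, counting error only). Leaving out Day7 replicate 1 makes it 88.1-fold and leaving out 6h replicate 4 makes it 85.6-fold. Against Day1 the log2 difference of Day7 was -2.64 ± 0.92 with adjusted p = 0.0736, which missed the threshold. Wnt4 passed in this comparison with DESeq2, with array weights and with scaling to all reads or to reads outside haemoglobin. It also passed without Day1 replicate 1 (limma's adjusted p = 0.0324), and it was not called in the other settings. Day1 against 6h gave -2.07 ± 0.92 with adjusted p = 0.428. In the F test for any difference among the 3 times, Wnt4 was the 1 of the 15 that passed (adjusted p = 0.0224), against 2.55% of all tested genes.

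The Wnt4 call between Day7 and 6h was lost without 6h replicate 3 (adjusted p = 0.102) and without Day7 replicate 4 (adjusted p = 0.0660). When Y-linked reads entered the fit as a term, the log2 difference was -4.18 (adjusted p = 0.0510), and among the libraries without such reads alone it was -5.19 (adjusted p = 0.157, 4 libraries at Day7 and 2 at 6h). The call was also lost with no filter (adjusted p = 0.134), with a pseudocount of 4 (0.0513), with scaling to all reads (0.188) and in a fit of 2 groups (0.0559), and it was kept with edgeR (adjusted p = 0.0396) and DESeq2 (1.9e-06). The F call of Wnt4 was lost without Day7 replicate 3 or 4 (adjusted p up to 0.0621).

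Wnt5a, a β-catenin-independent ligand of mesenchyme, had values of 0, 1.14, 2.66 and 6.47 at 6h, of 9.27, 15.9, 8.42 and 20.6 at Day1, and of 1.86, 0.191, 0 and 0.333 at Day7. Every Day1 library lay above every library of both other times. The mean was 0.595 ± 0.852 at Day7 against 13.5 ± 5.75 at Day1 (SD, n = 4 each), a log2 difference of -3.23 ± 0.82 (SE) with limma's adjusted p = 0.0308. For Day1 against 6h the log2 difference was 2.31 ± 0.82, and its adjusted p of 0.323 missed the threshold although the groups did not overlap. Of the 15 genes Wnt5a was the 1 without overlap in this direction, against 5.52% of all tested genes.

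Wnt11, a ligand of cell movement and bone-forming cells, had values of 0, 2.65, 18.3 and 0.959 at 6h, of 4.70, 14.6, 6.60 and 16.7 at Day1, and of 0, 0, 0 and 0.333 at Day7. All Day1 libraries were above all Day7 libraries, and the 6h libraries overlapped both. The mean was 0.0831 ± 0.166 at Day7 against 10.7 ± 5.90 at Day1 (SD, n = 4 each), a log2 difference of -3.28 ± 0.86 (SE) with limma's adjusted p = 0.0335. Pooled reads were 1 at Day7 and 1019 at Day1, which is 315-fold lower with a 95% exact interval of 56.5 to 12467 (counting error only). Without Day7 replicate 1 the pooled ratio was 127-fold, and without Day7 replicate 4, which held the single read, Wnt11 was at least 92.2-fold lower, taking 3 reads over the group as the floor.

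The Wnt5a and Wnt11 calls were each kept in 6 of 12 fits that left out 1 library. They were lost without replicate 2, 3 or 4 of Day1 and without replicate 2, 3 or 4 of Day7, with adjusted p between 0.0685 and 0.0862 for Wnt5a and between 0.0674 and 0.0862 for Wnt11. When Y-linked reads entered the fit, the log2 differences were -2.26 for Wnt5a (adjusted p = 0.276) and -2.18 for Wnt11 (adjusted p = 0.310), and edgeR's quasi-likelihood test on the recovered reads gave adjusted p = 0.138 for Wnt5a and 0.110 for Wnt11. In libraries without such reads, which leave Day1 with replicate 1 alone, assumed to vary like the other groups, the differences were -2.81 for Wnt5a and -2.41 for Wnt11, both with adjusted p = 0.219. Both calls were lost with no filter (adjusted p = 0.0695 for Wnt5a and 0.101 for Wnt11), that of Wnt11 also with a pseudocount of 4 (0.0524), and DESeq2 kept them (adjusted p = 0.00442 and 0.000413).

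**Figure D2:**
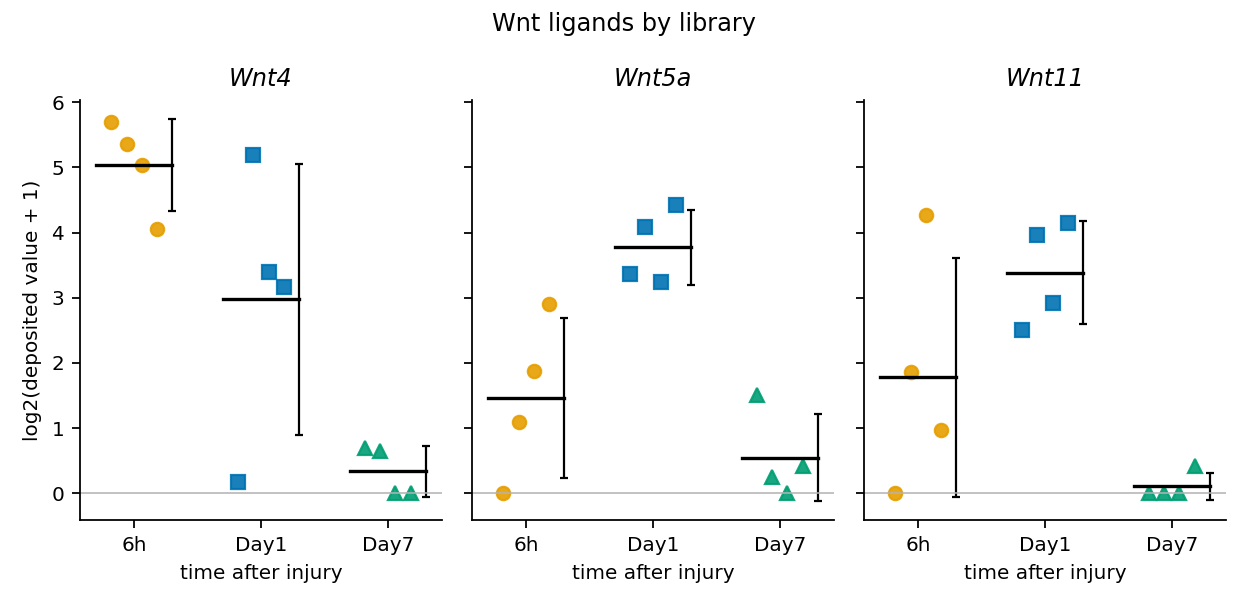
Dot plots of Wnt4, Wnt5a and Wnt11 on the log2(deposited value + 1) axis at 6h, Day1 and Day7; each point is a library, the bar is the mean of the log2 values and the error bar is the SD (n = 4). Wnt4 is highest at 6h, Wnt5a is highest at Day1, and the Day7 points of all 3 genes lie near 0.

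The other 3 tested ligands are Wnt2, Wnt2b and Wnt9a, and none passed limma's main test. For Day7 against Day1, Wnt2b and Wnt9a passed with DESeq2, array weights, both scalings to reads and a fit of 2 groups, and DESeq2 also called Wnt9a for Day7 against 6h. Wnt2b, a ligand made by mesenchyme, averaged 0.0344 ± 0.0688 at Day7 and 4.66 ± 4.45 at Day1 (SD, n = 4 each). Its groups did not overlap, and the log2 difference was -2.09 ± 0.72 with limma's adjusted p = 0.0694. Wnt9a, a ligand of joint formation, averaged 0.0688 ± 0.138 at Day7 and 3.97 ± 3.00 at Day1, with a log2 difference of -1.93 ± 0.82 and adjusted p = 0.123 in limma. Wnt2, a ligand of lung and vessel development, averaged 0.482 ± 0.963 at Day7 and 7.18 ± 9.88 at Day1, and Day1 replicate 4 alone reached 21.3.

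Of the 8 ligands with reads that did not pass the filter, Wnt5b had the most, 503 reads, and it was picked out after its values were seen. It stood at 69.8 in 6h replicate 1, which held 374 of the reads, and at 3.71 or below in the other 11 libraries. Wnt7b had 108 reads and averaged 0.947 at 6h, 1.07 at Day1 and 0 at Day7, with its highest value of 3.79 in 6h replicate 2. Wnt6 had 47 reads and averaged 0.189 at 6h, 0.493 at Day1 and 0.0831 at Day7. Wnt10b had 24 reads and Wnt16 had 5.

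Among the receptors no Fzd gene passed limma's main test. For 3 of the 6 tested (Fzd1, Fzd2 and Fzd7) all Day7 libraries lay below all Day1 libraries, as they did for 14.5% of all tested genes. These 3 were called by DESeq2 in both Day7 comparisons, and with array weights, both scalings to reads and a fit of 2 groups for Day7 against Day1. Fzd1 had values of 5.41, 3.41, 4.10 and 2.16 at 6h, of 6.43, 11.5, 1.90 and 9.19 at Day1, and of 0, 0, 1.23 and 0.665 at Day7. All its Day7 libraries lay below every library of the earlier times. The log2 difference was -2.38 ± 0.78 (SE) for Day7 against Day1 with limma's adjusted p = 0.0609 (0.0383 without 6h replicate 1 and 0.0495 without 6h replicate 4), and -1.73 ± 0.78 for Day7 against 6h with adjusted p = 0.240.

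Fzd7, a receptor found on many progenitor cells, had values of 0.187, 0.757, 8.45 and 9.23 at 6h, of 1.85, 9.89, 2.43 and 6.11 at Day1, and of 0.138, 0.574, 0 and 0 at Day7. Fzd2, a receptor for Wnt5a among others, had values of 0.747, 0, 4.35 and 6.53 at 6h, of 3.09, 9.70, 2.50 and 2.37 at Day1, and of 0, 0.383, 0 and 0 at Day7. Both were lower in every Day7 library than in any Day1 library, and for both the 6h libraries fell into a low pair, replicates 1 and 2, and a high pair, replicates 3 and 4. The log2 difference of Day7 against Day1 was -2.18 ± 0.81 for Fzd7 (limma's adjusted p = 0.0857) and -2.14 ± 0.73 for Fzd2 (adjusted p = 0.0684). The high pair are the 6h libraries that held Y-linked reads, and with these reads in the fit the differences between Day7 and Day1 were -0.62 for Fzd7 (adjusted p = 0.741) and -1.07 for Fzd2 (adjusted p = 0.537).

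The remaining 3 tested receptors were not called by limma's main test. For Day7 against Day1, Fzd8 passed with array weights and with both scalings to reads, and Fzd5 passed with scaling to all reads. Fzd6, a receptor of planar cell polarity, averaged 0.585 ± 1.17 at Day7 and 3.22 ± 4.04 at Day1. Fzd8 averaged 0.292 ± 0.585 at Day7 and 2.78 ± 2.80 at Day1, and Fzd5 averaged 0.183 ± 0.323 at Day7 and 1.51 ± 0.978 at Day1 (SD, n = 4 each). Fzd4, the receptor for norrin in blood vessels, had 103 reads in 7 libraries and did not pass the filter. Its highest values were 8.31 in Day7 replicate 4, which held 25 of its 26 Day7 reads, and 5.79 in 6h replicate 3. Fzd3 had 49 reads, Fzd9 had 23, all at 6h, and the detected Fzd10 row had 18, all at Day1.

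Over the 15 tested genes, 0 passed in either direction for Day1 against 6h, where 0.169% of all tested genes did, while 5 had an unadjusted p under 0.05. edgeR and DESeq2 on the recovered reads also called 0. Of the 15, 12 had positive differences, with a median of 0.72 against 0.52 over all tested genes. For Day7 against Day1, 2 of the 15 (Wnt5a and Wnt11) were lower, against 3.59% of all tested genes, and 0 were higher. The differences of 14 were negative, with a median of -2.06 against -0.48 over all tested genes, of which 61.8% were negative. For 6 of the 15 (Wnt5a, Wnt11, Wnt2b, Fzd1, Fzd2 and Fzd7) all Day7 libraries lay below all Day1 libraries, against 14.5% of all tested genes. For Day7 against 6h, 1 of the 15 (Wnt4) was lower, against 0.277%, and 14 differences were negative, with a median of -1.42 against 0.13 over all tested genes. The groups of 2 (Wnt4 and Fzd1) did not overlap, against 2.38% of all tested genes. The 2 comparisons of Day7 share the Day7 libraries, and the 2 with Day1 share those of Day1. The count for Day7 against Day1 was 0 to 4 with 1 library left out, being 0 without replicate 2, 3 or 4 of Day1 and without replicate 2, 3 or 4 of Day7, and 4 without 6h replicate 4. It was 0 with edgeR and 9 with DESeq2. The count for Day7 against 6h was 0 without 6h replicate 3 or Day7 replicate 4, and 2 without 6h replicate 4, where Sfrp2 passed as well (adjusted p = 0.0362).

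**Figure D3:**
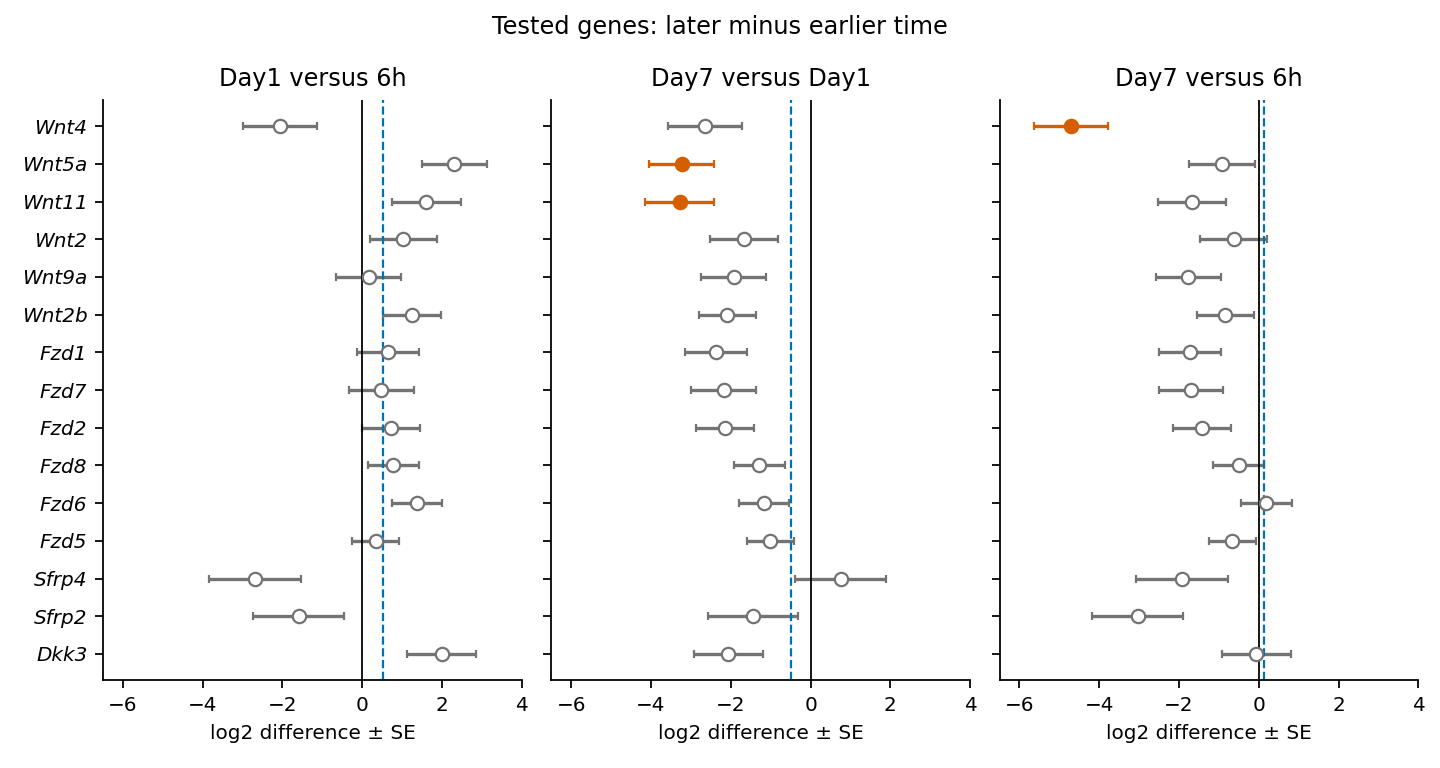
Log2 differences (later minus earlier time, horizontal axis, with SE bars) of the 15 tested genes in the 3 comparisons; filled orange points passed limma's adjusted threshold of 0.05, and the dashed line is the median of all 11211 tested genes. The called points are Wnt5a and Wnt11 for Day7 against Day1, and Wnt4 for Day7 against 6h.

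Among the antagonists none passed limma's main test, and the Sfrp genes were high in few libraries. Sfrp4, a secreted Wnt-binding protein of connective tissue, had values of 0, 150.0, 23.9 and 0 at 6h, of 0, 1.10, 0 and 0.0389 at Day1, and of 1.65, 0, 0 and 5.65 at Day7. Sfrp2, a secreted protein of fibroblasts and mesenchymal stem cells, had values of 0, 114, 38.6 and 0 at 6h, of 1.61, 1.79, 0 and 6.46 at Day1, and of 0 in all 4 libraries at Day7. Both genes were thus high in the same 6h libraries, replicates 2 and 3, and at 0 in replicates 1 and 4. For Day7 against 6h the log2 difference was -3.04 ± 1.14 (SE) for Sfrp2, with limma's adjusted p = 0.164, and -1.93 ± 1.15 for Sfrp4, with adjusted p = 0.382. Sfrp2 passed for Day7 against 6h with array weights (adjusted p = 0.0101) and for both Day7 comparisons with DESeq2 (adjusted p = 1.6e-11 against 6h and 3.2e-07 against Day1), where all Day7 libraries are at 0. Pooled reads of Sfrp2 were 0 at Day7 and 460 at 6h, at least 130-fold lower with 3 reads over the group as the floor, or at least 52.4-fold without Day7 replicate 1, at least 49.7-fold without 6h replicate 2 and at least 308-fold without 6h replicate 4.

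Sfrp1 did not pass the filter and was picked out after its values were seen. It was found at Day1 alone, with values of 0.124, 2.86, 0.758 and 8.25 and 314 reads in all. All 4 libraries at 6h and all 4 at Day7 had 0 reads of it. Pooled, Day1 was at least 38.3-fold higher than 6h, or at least 16.1-fold without 6h replicate 4 and at least 18.4-fold without Day1 replicate 4. Pooled, Day7 was at least 32.4-fold lower than Day1, or at least 13.1-fold without Day7 replicate 1 and at least 15.6-fold without Day1 replicate 4. These ratios compare the sequenced libraries and carry no test.

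Dkk3, a secreted relative of the Dkk proteins that is not known as a classical Lrp antagonist, had values of 0, 0, 2.66 and 3.78 at 6h, of 2.10, 23.2, 4.32 and 9.93 at Day1, and of 0.757, 0.383, 0 and 4.99 at Day7. The groups overlapped, through Day7 replicate 4. The log2 difference was -2.06 ± 0.87 (SE) for Day7 against Day1, with limma's adjusted p = 0.119, and 1.99 ± 0.87 for Day1 against 6h, with adjusted p = 0.414. For Day7 against Day1 the difference was -0.58 with the Y-linked term (adjusted p = 0.785) and -0.67 in libraries without Y-linked reads (adjusted p = 0.859), whereas array weights gave -2.19 (adjusted p = 0.0350), and both scalings to reads also called Dkk3. Dkk2 had 3 reads in all.

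**Figure D4:**
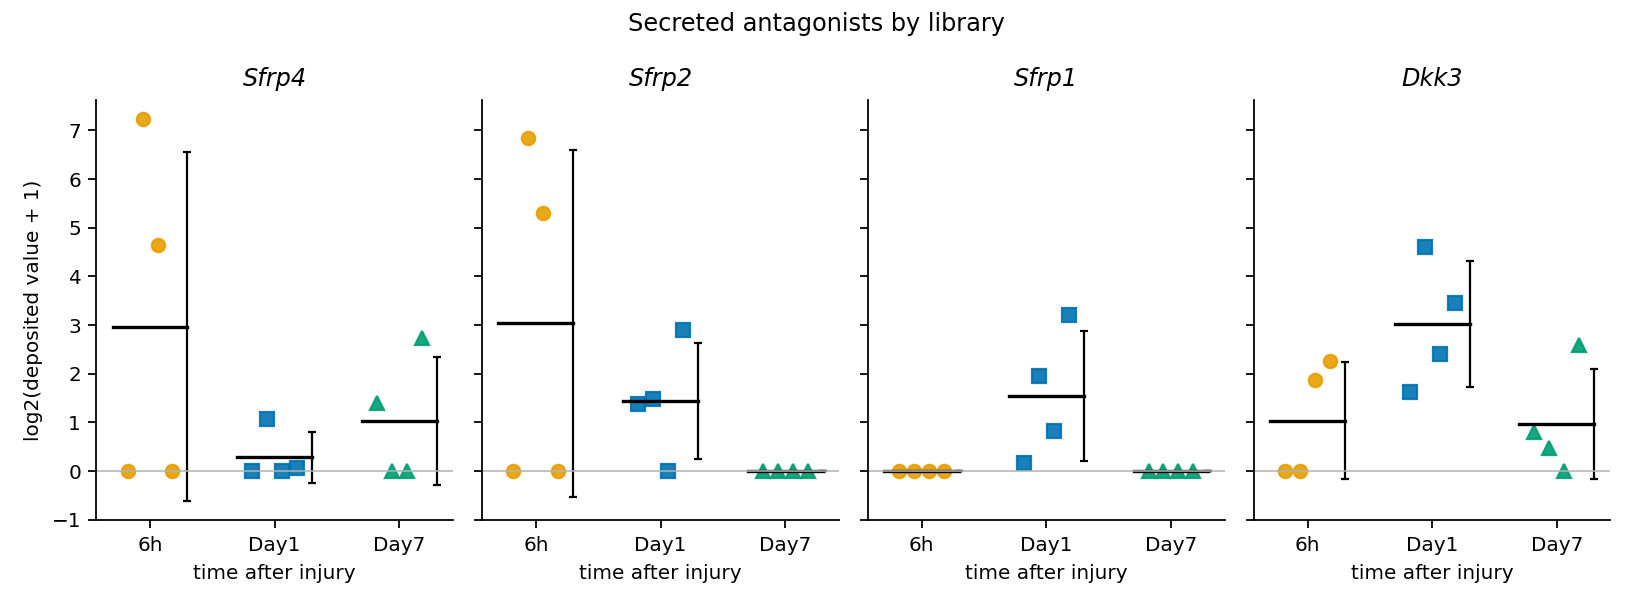
Dot plots of Sfrp4, Sfrp2, Sfrp1 and Dkk3 on the log2(deposited value + 1) axis at 6h, Day1 and Day7; each point is a library, the bar is the mean of the log2 values and the error bar is the SD (n = 4). Sfrp4 and Sfrp2 are high in 2 of 4 libraries at 6h, and Sfrp1 is above 0 at Day1 alone.

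Other genes of the pathway were read from lists of known components. Among co-receptors and alternative receptors, 5 of 8 were tested, and 1 of them, Ror1, a receptor tyrosine kinase for Wnt5a, fell between Day1 and Day7. Of all tested genes 3.59% did so. Ror1 had values of 0, 3.41, 9.66 and 3.06 at 6h, of 5.69, 17.4, 5.31 and 30.6 at Day1, and of 0, 0, 0 and 1.33 at Day7. The log2 difference of Day7 against Day1 was -3.34 ± 0.87 with limma's adjusted p = 0.033. The list's median was -2.12 in this comparison, against -0.48 over all tested genes. Ryk, another Wnt receptor kinase, averaged 1.16 ± 1.45 at Day7 and 13.9 ± 9.998 at Day1 (SD, n = 4 each), with limma's adjusted p = 0.056. Kremen1, a partner of the Dkk proteins, averaged 0.103 ± 0.206 at Day7 and 5.54 ± 5.79 at Day1, and stood at 128 in 6h replicate 1.

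Rspo1 encodes an R-spondin, a secreted protein that strengthens Wnt signals by sparing Frizzled receptors from removal. In the list of R-spondins and receptor turnover, 2 of 9 were tested and Rspo1 was the 1 that fell between Day1 and Day7, as 3.59% of all tested genes did. Rspo1 had values of 2.24, 0.757, 131 and 52.5 at 6h, of 19.7, 117, 78.0 and 175 at Day1, and of 7.43, 0.191, 0.617 and 10.6 at Day7. The Day7 libraries lay below all Day1 libraries, with a log2 difference of -4.36 ± 1.15 and limma's adjusted p = 0.033. Znrf3, a ligase that removes Frizzled receptors, averaged 0.327 ± 0.654 at Day7 and 0.731 ± 0.552 at Day1. Wls, which carries Wnt proteins to the cell surface, was the 1 of 2 secretion genes tested and averaged 8.60 ± 16.9 at Day7 and 24.0 ± 19.5 at Day1, with limma's adjusted p = 0.118. Of 8 other antagonists measured, Apcdd1 was the 1 tested, at 4.14 ± 2.79 at Day7 and 0.779 ± 0.758 at Day1, with adjusted p = 0.154.

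Inside the cell, 0 of the 19 tested relay genes passed in any comparison. Of all 11211 tested genes, 19 passed for Day1 against 6h, 648 for Day7 against Day1 and 99 for Day7 against 6h. The median of the relay genes was -0.73 for Day7 against Day1, where that of all tested genes was -0.48. The 2 with the highest mean were Csnk1d, a casein kinase, and Gsk3b, the kinase that marks β-catenin for destruction. Gsk3b averaged 112 ± 27.4 at Day7 and 20.2 ± 2.55 at Day1 with limma's adjusted p = 0.068. Csnk1d averaged 87.0 ± 93.1 at Day7 and 26.4 ± 8.16 at Day1, and Day7 replicate 3 alone reached 225.

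Among 10 tested feedback and target genes 1 was lower in each Day7 comparison, Jun, an AP-1 subunit that many stress signals also induce. Of all tested genes 3.59% were lower at Day7 than at Day1, and 0.277% were lower than at 6h. The mean of Jun was 277 ± 115 at 6h, 284 ± 199.9 at Day1 and 27.1 ± 21.9 at Day7 (SD, n = 4 each). The log2 difference was -3.65 ± 0.87 against Day1 (limma's adjusted p = 0.027) and -3.75 ± 0.87 against 6h (adjusted p = 0.040). Axin2, a general feedback target of β-catenin, averaged 0.625 at Day7 and 2.74 at Day1, and its adjusted p of 0.185 missed the threshold. Cd44, a cell surface receptor, averaged 243 ± 127 at Day7 and 44.2 ± 15.3 at Day1, with limma's adjusted p = 0.094.

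The calls of Ror1, Rspo1 and Jun for Day7 against Day1 were lost with edgeR, with no filter and with the Y-linked term. They were also lost without replicate 2, 3 or 4 of Day1, and without replicate 2 or 3 of Day7, with adjusted p up to 0.093 for Ror1, 0.0987 for Rspo1 and 0.0855 for Jun. Ror1 was also lost without Day7 replicate 4. The Jun call against 6h was lost without any 1 of 8 libraries (replicates 2 and 3 of 6h, and replicates 2, 3 and 4 of Day1 and of Day7), with adjusted p up to 0.153. It was also lost with edgeR, a pseudocount of 4, no filter, scaling to all reads, a fit of 2 groups, the Y-linked term (adjusted p = 0.0773), in libraries without Y-linked reads and without the 2 libraries with the fewest genes, among which the adjusted p reached 0.354. When Y-linked reads entered the fit, the log2 difference of Rspo1 was -1.35 (limma's adjusted p = 0.553), that of Ror1 was -2.25 (adjusted p = 0.304) and that of Jun was -3.23 (adjusted p = 0.195).

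Markers of some cell types outside blood, namely mesothelium, keratinocytes and part of the fibroblast list, were also lower at Day7 than at Day1, while those of others were not. The summed values of 8 markers of mesothelium, the lining of the body cavities, among them Msln, Upk3b and Wt1, were 419, 12.5, 2027 and 1077 at 6h, then 428, 2393, 1620 and 1899 at Day1, and 93.3, 102, 1.23 and 191 at Day7. For Day7 against Day1, 6 of the 8 were lower in limma's test, against 3.59% of all tested genes, with a median log2 difference of -4.53. For Day7 against 6h, 0 of the 8 passed, with a median of -2.45 against 0.13 over all tested genes. The 8 fibroblast markers summed to between 12.1 and 1454 at 6h, 324 and 1914 at Day1, and 54.3 and 616 at Day7. For Day7 against Day1, the 6 tested had a median log2 difference of -3.49, against -0.48 over all tested genes. Of these 6, 2 (Col1a1 and Col1a2) were lower, against 3.59% of all tested genes. The differences of Dpt and Lum were positive, at 2.14 and 1.56, and did not pass. For Day7 against 6h, 0 of the 6 tested fibroblast markers passed, with a median log2 difference of -1.21. Pdgfra and Pdgfrb, which define mesenchymal cells, had 98 and 227 reads in all. The 8 keratinocyte markers summed to between 33.7 and 206 at 6h, 67.2 and 381 at Day1, and 0 and 5.64 at Day7, with Krt5 and Krt1 at 0 in every library. Of the 4 keratinocyte markers tested, 2 were lower at Day7 than at Day1, with a median log2 difference of -3.59. Against 6h, 1 of the 4 was lower at Day7, as were 0.277% of all tested genes. Of the 8 platelet markers, 5 were higher at Day7 than at Day1, as were 245 of all 11211 tested genes. Against 6h, 4 of the 8 were higher at Day7, as were 68 of all tested genes. Of the 8 hepatocyte markers, 6 were higher at Day1 than at 6h, as were 19 of all tested genes, and 6 were higher at Day7 than at 6h. The median difference of the endothelial markers was 1.33 for Day7 against Day1 and 1.48 for Day7 against 6h, and that of the smooth muscle markers was 0.51 in both, with 0 called in either list by limma's main test. The marker calls for Day7 against Day1 depended on the processing. With the Y-linked term, 0 of all 11211 tested genes passed in this comparison, so no marker call was kept there. edgeR called 1 of all tested genes, and 3 genes passed without Day1 replicate 3. The part of these cell types in the values of the Wnt genes was not tested.

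The mesothelial sums and Wnt4 did not go together in every library. In 6h replicate 2 the mesothelial markers summed to 12.5, with Wt1, Upk1b and Gpm6a at 0, and the fibroblast markers summed to 12.1, with Pdgfra, Pdgfrb and Lum at 0. The same library held Wnt4 at 40.1, Sfrp2 at 114 and Sfrp4 at 150.0. In Day1 replicate 1 the mesothelial markers summed to 428 and Wnt4 stood at 0.124. Wnt5a and Wnt11 had the order of the marker sums in these 2 libraries, which were picked after their values were seen. Wnt5a was at 9.27 in Day1 replicate 1 and 1.14 in 6h replicate 2, and Wnt11 was at 4.70 in the Day1 library and 2.65 in the 6h library. In 6h replicate 1 the 2 ligands did not keep this order. Both were at 0 there, with a mesothelial sum of 419 and a fibroblast sum of 260.

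**Figure D5:**
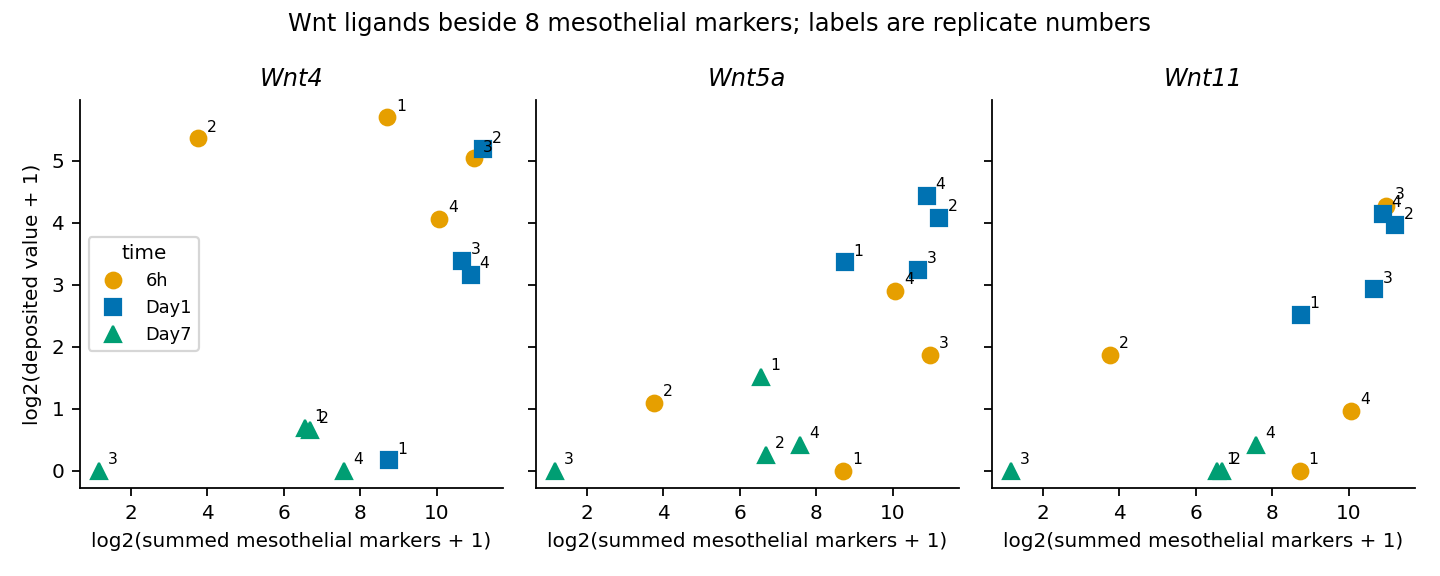
Scatter plots of Wnt4, Wnt5a and Wnt11 (vertical, log2(deposited value + 1)) against the summed value of 8 mesothelial markers (horizontal, same scale) in the 12 libraries; marker and colour give the time and labels the replicate number. The 6h libraries 1 and 2 hold Wnt4 at 51.0 and 40.1 with marker sums of 419 and 12.5. The Day7 libraries lie low on the vertical axes, with marker sums between 1.23 and 191.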

How the data were processed

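Total RNA libraries of iChip-enriched blood were made with the Seqwell Rapid kit, per the labels' protocols. STAR 2.7.10, HTSeq 2.0.1 and the build mm9 are named in the submitters' processing notes. Not given in the sources used here are the annotation, the strand setting and the scaling step, so reads of overlapping or antisense genes may be included. The authors deposited a signal for each gene under the name CPM, and its columns sum to between 351981 and 5611150. Values were whole multiples of 1 read (100% within 0.001 reads), which gave the read totals.

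Time groups came from the titles. limma 3.58.1 (R 4.3.3) with trended variance was fitted to log2(value + 1) of all 12 libraries, for genes at a value of 1 or more in 4 or more libraries. p-values were adjusted by Benjamini-Hochberg over all 11211 genes, with a threshold of 0.05, and 19, 648 and 99 genes passed for Day1 against 6h, Day7 against Day1 and Day7 against 6h. Differences on this scale understate changes of low genes. The fit was tested on simulated data. edgeR 4.0.16 and DESeq2 1.42.0 on the recovered reads were alternatives, with other pseudocounts, filters, scalings, array weights, fits of 2 groups, a replicate block, a Y-linked term and each library left out. The analysis of libraries without Y-linked reads was added after the data were seen.

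Members and lists were chosen with earlier results of these data known. Values in every library are given for Wnt4, for genes called in a comparison and for the 3 tested genes with the highest mean in each class. List genes are named where called or among the 2 with the highest mean of their list. Outside this rule, Sfrp1, Wnt5b and Axin2 were chosen after their values were seen. So were single marker genes (Msln, Upk3b, Wt1, Upk1b, Gpm6a, Col1a1, Col1a2, Dpt, Lum, Pdgfra, Pdgfrb, Krt5 and Krt1). Pooled ratios divide summed reads by summed effective library sizes, with 3 reads over a group as the floor of a group at 0. Intervals and floors cover counting error only. Promoters came from RefSeq (GRCm38.p6) and were matched by symbol, and no coordinates were converted from mm9.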

Additional observations from a re-analysis of the deposited data

Results flagged for a closer look

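In 26 groups of 4 libraries, those of the 9 genes given by library that were not all equal, Dixon's criterion at the 95% level marked 7 single libraries that stand apart from the other 3. Chance marks about 1 in 20 groups of normally distributed values. These values are skewed with many at 0, and a group with 1 library above 0 is always marked. The number of marks therefore cannot be set against that rate. Sfrp4 in 6h replicate 2 had a value of 150.0 from 396 reads, and the next 6h library had 23.9. Wnt11 in 6h replicate 3 had 18.3 from 76 reads, and the next had 2.65. Fzd2 in Day1 replicate 2 had 9.70 from 309 reads, and the next had 3.09. Sfrp4 in the same Day1 library had 1.10 from 35 reads. Dkk3 in Day7 replicate 4 had 4.99 from 15 reads, and the next had 0.757. The other 2 marks rest on 1 or 2 reads against 0 in the other libraries, namely Wnt11 in Day7 replicate 4 at 0.333 and Fzd2 in Day7 replicate 2 at 0.383.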

How the results depend on the processing

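The counts of tested Wnt, Fzd, Sfrp and Dkk genes that passed limma's threshold moved with the processing, and the cause was not tested. For Day1 against 6h the count was 0, and it was 3 with scaling to all reads, 1 with scaling to the reads that are not haemoglobin and 0 in each of the 12 fits that left out 1 library. For Day7 against Day1 it was 2. It was 11 and 10 under these 2 scalings, 10 with array weights, 9 with DESeq2, 7 in a fit of 2 groups and 1 with a pseudocount of 4. It was 0 with edgeR, with no filter, with a mean value of at least 10 (3 genes left to test), with the Y-linked term and in the libraries without Y-linked reads, and 0 to 4 with 1 library left out. For Day7 against 6h it was 1. It was 7 with DESeq2, 2 with array weights, 0 to 2 with 1 library left out, and 0 with no filter, a pseudocount of 4, scaling to all reads, the Y-linked term, the libraries without Y-linked reads and a fit of 2 groups. For the F test it was 1. It was 9 with array weights, 8 under both scalings to reads, 5 with DESeq2, 2 with median-of-ratios scaling, 0 to 3 with 1 library left out, and 0 with edgeR, no filter, the Y-linked term, the libraries without Y-linked reads and without the 2 libraries with the fewest genes.

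Scaling to all reads moved the median log2 difference of all genes to 1.57 for Day1 against 6h and to -1.77 for Day7 against Day1, and scaling to reads outside haemoglobin to 1.22 and -1.60. Among the 9 genes given by library, directions turned in 3 results that had not passed. The other tested genes were not checked for this. Dkk3 at Day7 against 6h was 0.048 with a pseudocount of 0.25, 0.92 with the Y-linked term, 0.97 in libraries without Y-linked reads, and -0.60 to 0.34 with 1 library left out. Fzd7 at Day1 against 6h was -0.10 with edgeR, -0.043 with the Y-linked term, -0.078 without the 2 libraries with the fewest genes, and -0.078 to 0.96 with 1 library left out. Wnt4 at Day7 against Day1 was 0.17 in libraries without Y-linked reads, where Day1 has 1 library. The Wnt4, Wnt5a and Wnt11 calls kept their direction in every setting run. Over all genes, 19 calls for Day1 against 6h became 0 to 1243, 648 for Day7 against Day1 became 0 to 4075, 99 for Day7 against 6h became 0 to 1060, and 286 in the F test became 10 to 2993.

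Same-numbered libraries did not deviate together over the tested genes (12 pairs, r from -0.231 to 0.125, 1 over 0.1). Such correlations cannot exclude a pairing that adds little to the spread, so whether the numbers pair the samples was not settled. With the replicate block the counts of these genes were 0, 2 and 1 in the 3 comparisons and 1 in the F test. At Day7, 3 reads correspond to values of 0.206, 0.574, 1.85 and 0.998 in replicates 1 to 4. Levels below these values rest on few reads or may have been missed in the library concerned.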
